A study of Homo sapiens with 40 samples.

Results

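The slow RNA polymerase II mutant R749H and the fast mutant E1126G were compared directly at 2129 skipped-exon events measured by RASL-seq. An event belonged to the comparison when it stood in both of the authors' deposited RASL-seq tables, R749H against WT and E1126G against WT, with the same chromosome, start, end, strand, gene and score. The R749H table held 2248 events, 119 of them its own, and 183 of the 2312 events for E1126G stood only there. The 5 deposited exon tables of the series together held 16378 events. The shared events lay in 1605 genes, of which 1583 had a symbol. They were 2061 distinct measurements, since 68 rows repeated the values of another row of the same gene.

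All cells were HEK293 Flp-in T-REx, a line from human embryonic kidney built for inducible expression from a fixed genomic site, carrying an Rpb1 transgene that resists α-amanitin (Amr). Rpb1 is the large, catalytic subunit of RNA polymerase II. The transgene was the WT, R749H, E1126G or H1106Y form, and the description of R749H as slow and E1126G as fast comes from the study, since elongation rate was not measured here. Every group, WT included, had doxycycline for 12 to 16 h to switch the transgene on, followed by α-amanitin for 42 h, which blocks the polymerase that the host cell still makes. RASL-seq had 12 libraries, 3 for each of 4 genotypes. For RASL-seq the labels name no culture or clone, so the 3 libraries of a genotype may be technical repeats.

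Splicing of most human introns begins while the polymerase is still transcribing the gene. In the kinetic view of this coupling, a slow polymerase leaves more time for an upstream exon to be recognised before the competing downstream splice site is made, and a fast polymerase leaves less. Slow elongation can also give inhibitory factors more time to bind, so inclusion of an exon may move either way. RASL-seq measures such choices with pairs of oligonucleotides that anneal on either side of a spliced junction, are ligated there and are counted by sequencing. It therefore reads a chosen set of junctions rather than whole transcripts.

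Each deposited row gives, for WT, how many reads included the exon per read that skipped it, the change of this ratio in the mutant and a p-value, with no value per library. Inclusion in each mutant was rebuilt from these as the percentage of reads at the event that included the exon. It is a share of reads and need not equal the share of transcripts that hold the exon. The difference between the mutants, D, was the log2 of the R749H ratio over the E1126G ratio, in which the WT ratio cancels. Every inclusion level below comes from the authors' deposited tables and is a single value for all libraries of a genotype, so it carries no SD. The error of D is the one implied by the 2 deposited p-values, and an event was called when its approximate z test passed 0.05 after Benjamini-Hochberg adjustment over all 2129 events. With 3 libraries per genotype and no value per library no exact test could be made, so the calls rest on a normal approximation and p-values of single events are not printed. Read depth is unknown, because the tables hold ratios. Gene expression, the level of Rpb1 itself and markers of HEK293 cells could not be read from tables of splicing ratios.

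In RASL-seq, exons were included more in R749H than in E1126G at most of the shared events. D was above 0 at 1419 of 2129 events, and its median was 0.44, a 1.35-fold higher inclusion ratio in R749H. The quartiles of D were -0.22 and 1.10, and its range was -4.63 to 4.41. The median inclusion was 66.8% in R749H, 65.5% in WT and 59.4% in E1126G. Most of the offset lay on the side of E1126G, whose median log2 change from WT was -0.38, against 0.06 for R749H. Over the 1538 of these events that RNA-seq also measured, the median D was 0.45 in RASL-seq and 0.05 in RNA-seq.

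With the values as deposited, 720 events in 596 genes were called, 33.8% of those tested. Of these, 577 (27.1% of events) were higher in R749H and 143 (6.72%) were higher in E1126G, so 80.1% of the calls were higher in R749H. A shift of all events in either table would move every D by the same amount, and the median was therefore also subtracted before the test. The calls then numbered 588 (27.6%), with 286 (13.4%) higher in R749H and 302 (14.2%) higher in E1126G, and the share higher in R749H was 48.6%. Centring on the median puts as many events above 0 as below it, so a split of calls near even is built into this setting and says nothing of the balance itself. Among the calls with the median removed that also differed by at least 10 percentage points of inclusion, 157 were higher in R749H and 64 in E1126G, a share of 71.0%; the points themselves were taken as deposited and still hold the offset. The tables hold no value that tells a shift of the assay from a shift in the cells. Events that passed with the same sign both ways numbered 429 (20.2%) in 365 genes, 286 (13.4%) higher in R749H and 143 (6.72%) higher in E1126G. Because the median is above 0, the former are the calls with the median removed and the latter the calls as deposited, so the ratio of these counts is not a balance of directions. Of these, 157 and 53 differed by at least 10 points. The events named below passed both ways unless stated.

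**Figure D1:**
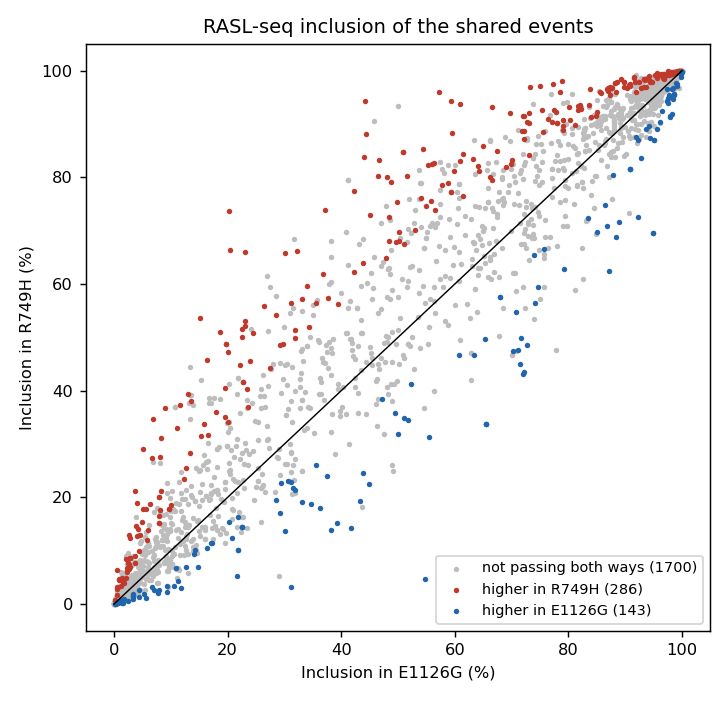
Inclusion in R749H against inclusion in E1126G, each in percent, for the shared RASL-seq events, with points coloured by whether the event was called both as deposited and with the median removed. The 286 coloured points on the R749H side and the 143 on the E1126G side are set by different limits, and with the median removed alone the calls were 286 and 302. The median inclusion was 66.8% in R749H and 59.4% in E1126G.

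**Figure D2:**
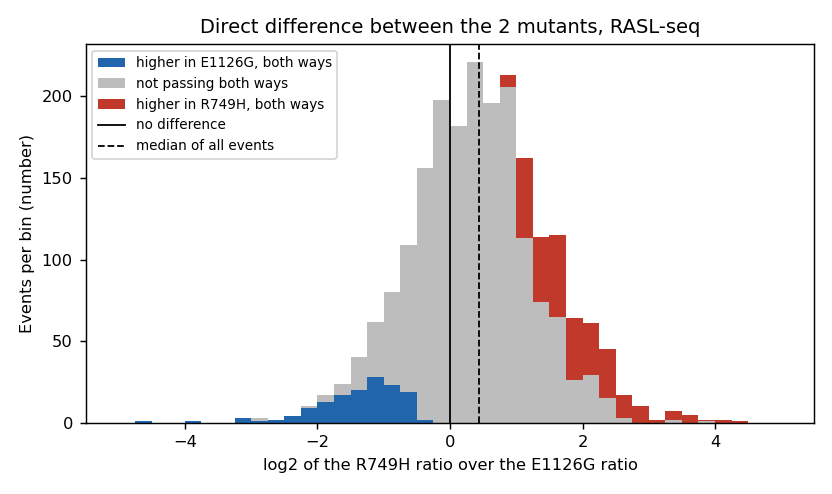
Histogram of D, the log2 ratio of R749H to E1126G inclusion ratios, over the shared events, with lines at 0 and at the median and bars stacked by call. The distribution is centred at 0.44 rather than at 0 and spans -4.63 to 4.41.

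The 12 genes with the largest inclusion gain in R749H over E1126G held exons that differed by 35.1 to 53.6 percentage points. The largest was a 66-nt exon of PPP5C (chromosome 19, 46886668 to 46886733), which encodes protein phosphatase 5, a serine/threonine phosphatase. Its inclusion was 45.5% in WT, 73.8% in R749H and 20.2% in E1126G, so the WT level lay between the mutants. D was 3.48 ± 0.43 (implied SE).

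MDM4 encodes an inhibitor of p53 related to MDM2. A 39-nt exon of this gene (chromosome 1, 204506587 to 204506625) stood at 79.1% in WT, 94.4% in R749H and 44.1% in E1126G. Its D of 4.41 ± 0.79 was the highest of all shared events. A second MDM4 event, 68 nt long, overlapping the first and picked after its values were seen, stood at 90.8%, 98.1% and 78.9% in the same order. The pair of MDM4 events share sequence and are not separate evidence.

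FGFR2 is a receptor tyrosine kinase for fibroblast growth factors. Its 78-nt exon (chromosome 10, 123324016 to 123324093) was at 34.2% in WT, 66.4% in R749H and 20.5% in E1126G, a D of 2.94 ± 0.40. UCHL5, a deubiquitinase that works at the proteasome, showed the same order at a 75-nt exon, with 33.4% in WT, 53.7% in R749H and 15.1% in E1126G (D = 2.71 ± 0.30). RBM5, itself an RNA-binding regulator of splicing, had a 61-nt exon at 65.9%, 77.4% and 42.3%. In PPP5C, MDM4, FGFR2, UCHL5 and RBM5 the WT level thus lay between those of the mutants.

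In other genes of this group WT lay near E1126G. GPR137, which encodes a membrane protein, had a 150-nt exon at 49.0% in WT, 88.1% in R749H and 44.4% in E1126G (D = 3.21 ± 0.54). LEF1, a transcription factor of Wnt signalling, had a 41-nt exon at 42.5%, 83.3% and 46.7% (D = 2.51 ± 0.67). The 106-nt exon of NR2C2AP, a protein that binds a nuclear receptor, was at 39.0%, 83.7% and 43.9% (D = 2.71 ± 0.78). ZDHHC9, a palmitoyltransferase, had a 68-nt exon at 29.9%, 66.0% and 23.1% (D = 2.69 ± 0.87).

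GRK3 encodes a kinase that phosphorylates G-protein-coupled receptors. Its 77-nt exon was at 70.6% in WT, 96.1% in R749H and 57.1% in E1126G (D = 4.20 ± 0.85). EHMT2, a methyltransferase for histone H3 lysine, had a 102-nt exon at 41.3%, 65.9% and 30.2% (D = 2.16 ± 0.62). ADGRG6, an adhesion G-protein-coupled receptor, differed in kind. Its 46-nt exon fell from 90.4% in WT to 74.0% in R749H and further to 37.2% in E1126G, so both mutants lay below WT and the fast mutant lay lower.

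The 12 genes with the largest inclusion gain in E1126G over R749H differed by 24.1 to 50.2 points. ATP2B4, a plasma membrane calcium pump, stood first with a 178-nt exon (chromosome 1, 203702351 to 203702528) at 19.6% in WT, 4.69% in R749H and 54.8% in E1126G. Its D of -4.63 ± 1.16 was the lowest of all shared events. After ATP2B4 the next difference was 31.7 points.

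In several of these genes E1126G stayed close to WT and R749H was low. PTBP2 encodes a neural paralogue of the splicing repressor PTBP1, and skipping of its 34-nt exon is known to give a transcript that is degraded. That exon (chromosome 1, 97271975 to 97272008) was at 39.3% in WT, 14.3% in R749H and 41.7% in E1126G (D = -2.10 ± 0.23). CTNND1 encodes p120-catenin, which holds cadherins at cell junctions, and its 119-nt exon (chromosome 11, 57556509 to 57556627) was at 71.3%, 45.1% and 71.5% (D = -1.61 ± 0.28). AIFM1, a mitochondrial flavoprotein with a part in cell death, had a 143-nt exon at 36.8%, 13.9% and 38.2% (D = -1.94 ± 0.60).

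TBX3, a T-box transcription factor, carried a 60-nt exon (chromosome 12, 115117718 to 115117777) at 51.5% in WT, 15.2% in R749H and 39.3% in E1126G (D = -1.85 ± 0.54). The 167-nt exon of ITSN1, a scaffold of clathrin-mediated endocytosis, was at 91.6%, 62.4% and 87.2%. RRAGB, a Rag GTPase that signals amino acid supply to mTORC1, had an 84-nt exon at 20.6%, 3.23% and 31.1% (D = -3.76 ± 1.12).

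In the other 4 genes of this group E1126G lay well above WT. NEDD1, which brings γ-tubulin to centrosomes, had a 21-nt exon at 78.8% in WT, 69.5% in R749H and 94.8% in E1126G (D = -3.00 ± 0.25). ECT2, a guanine nucleotide exchange factor needed in cytokinesis, had a 267-nt exon at 49.3%, 43.1% and 72.1% (D = -1.77 ± 0.59). CLCN6, a member of the chloride channel family, had a 167-nt exon at 34.3%, 43.5% and 72.1%. C11orf54 had a 104-nt exon at 27%, 33.8% and 65.4% (D = -1.89 ± 0.59).

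**Figure D3:**
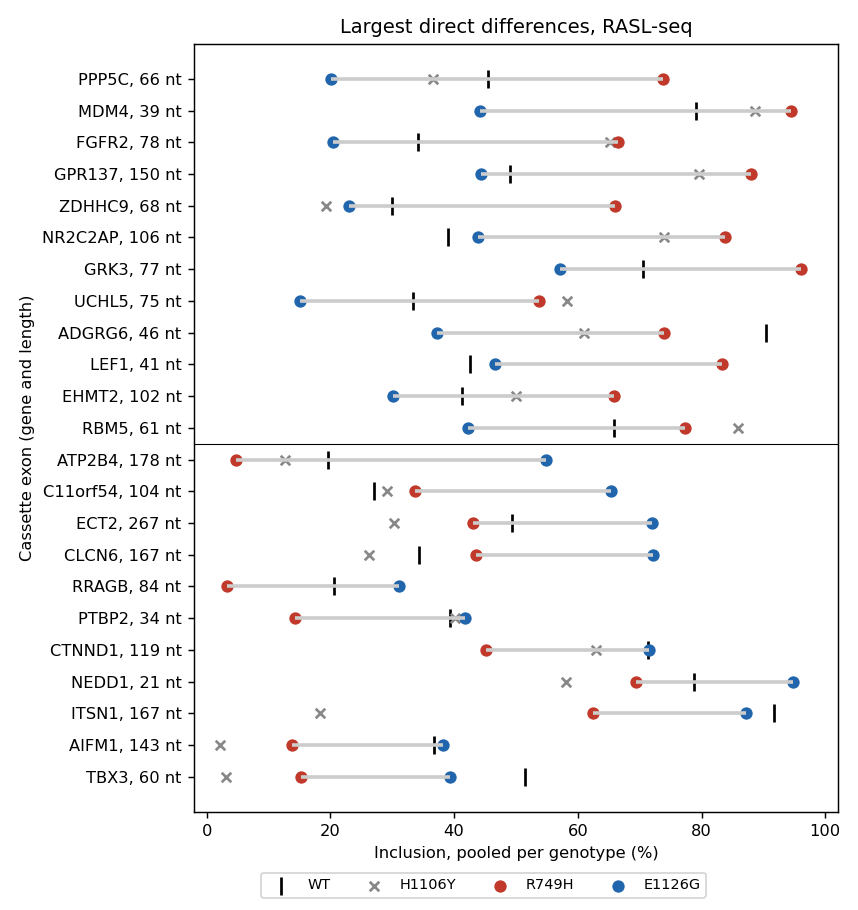
Inclusion in percent of the exons with the largest differences in each direction, as named in the text, in WT, R749H, E1126G and, where measured, H1106Y. Each point is the level of a genotype rebuilt from the deposited tables, with no error bar because no value per library is given. The gaps between R749H and E1126G run from 35.1 to 53.6 points in the upper group and from 24.1 to 50.2 points in the lower.

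Against WT itself, R749H was higher at 532 (25%) and lower at 444 (20.9%) of the shared events, and E1126G was higher at 309 (14.5%) and lower at 753 (35.4%), by the deposited p-values after adjustment in each table. Both of these comparisons use the same WT libraries. Some exons were called on opposite sides of WT in the pair of tables as well as directly between the mutants. The pool from which these were named held 78 events in 72 genes with R749H above WT and E1126G below it, and 8 events in 7 genes the other way. These counts rest on shared WT libraries and on tables without the offset removed, and are given only as the size of the pool. Besides the 5 genes above, the largest differences with R749H above WT and E1126G below it included PDLIM7, MTA1 and BTRC. MTA1, a subunit of the NuRD chromatin remodelling complex, had a 51-nt exon (chromosome 14, 105915696 to 105915746) at 78.9% in WT, 84.7% in R749H and 50.8% in E1126G. The same exon is also listed under TEX22 in the deposited tables. PDLIM7, a PDZ and LIM domain protein of the actin cytoskeleton, had a 62-nt exon at 58.2%, 80.3% and 46.4%, and BTRC, a ubiquitin ligase subunit that recognises β-catenin, had a 108-nt exon at 63.1%, 79.0% and 48.8%.

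With E1126G above WT and R749H below it stood ATP2B4, NEDD1, SMARCA1, ZDHHC20, ZFAS1, a 267-nt exon of FGFR2 and NONO. SMARCA1, an ISWI chromatin remodeller, had a 36-nt exon at 56.0% in WT, 47.5% in R749H and 70.2% in E1126G. ZFAS1, a long noncoding RNA that hosts small nucleolar RNAs, was at 29.0%, 24.0% and 37.5%. The palmitoyltransferase ZDHHC20 was at 58.7%, 49.7% and 65.3%, and NONO, a nuclear paraspeckle protein, was at 12.2%, 9.45% and 14.1%. In RNA-seq, PPP5C, MDM4, UCHL5, ZDHHC20, ZFAS1 and the 267-nt exon of FGFR2 kept their order around WT. Both mutants lay below WT there for RBM5, PDLIM7 and MTA1, and above WT for SMARCA1 and NONO. The 78-nt exon of FGFR2 had the opposite order, and the ATP2B4, NEDD1 and BTRC events had no RNA-seq value.

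Genes of the splicing machinery and its regulators were among those whose exons differed. Of all 2061 distinct measurements, 555 were higher in R749H and 133 in E1126G as deposited, and 276 and 287 with the median removed. These calls kept the adjustment over all 2129 events. The list of SR proteins and SR-related cofactors also holds the CLK and SRPK kinases, which phosphorylate SR proteins. It had 29 distinct measurements in 20 of its 36 genes. As deposited 11 of them were higher in R749H and 4 in E1126G, which became 8 and 7 with the median removed. Both ways 8 and 4 passed, 41.4% of the list beside 19.8% of all 2061 distinct measurements, and the median D was 0.89 beside 0.44. This list and those below were written with earlier results of these data known. Their shares are therefore description only, and no excess was tested. SRRM2, a scaffold of nuclear speckles, had a 273-nt exon at 31.1% in WT, 82.6% in R749H and 55.9% in E1126G. TRA2A, a splicing activator, had a 90-nt exon at 22.8%, 54.1% and 28.5%, and the SR protein SRSF7 had a 449-nt event at 22.5%, 51.3% and 31.9%.

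The hnRNPs and other splicing regulators, many of which repress exons, had 43 measurements in 24 of 50 genes. Of these 8 were higher in R749H and 3 in E1126G as deposited, 4 and 6 with the median removed, and 4 and 3 both ways (16.3%). The members that differed most were RBM5 and PTBP2, described above, and MATR3, a nuclear matrix protein whose 124-nt exon was at 70.7% in WT, 56.5% in R749H and 74.2% in E1126G. Core spliceosome genes had 14 measurements in 11 of 44 genes. As deposited 5 were higher in R749H and 0 in E1126G, 35.7% called beside 33.8% of all events. With the median removed 1 and 2 were called, 21.4% beside 27.6%. Only SNRPA1, a protein of the U2 particle, passed both ways, and its exon stood above 99% in each, at 99.8% in R749H and 99.1% in E1126G.

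Genes of RNA polymerase II elongation and chromatin had 32 measurements in 25 of 60 genes. As deposited 12 were higher in R749H and 2 in E1126G, with the median removed 8 and 7, and both ways 8 and 2 (31.2%), with a median D of 0.63. CCNT1, the cyclin partner of CDK9 in the elongation factor P-TEFb, had a 164-nt exon at 17.5% in WT, 50% in R749H and 22.6% in E1126G. SMARCA2, an ATPase of SWI/SNF remodellers, had a 54-nt exon in the other direction, at 42.1%, 22.5% and 45%. Genes of 3′ end processing and RNA surveillance had 16 measurements in 10 of 34 genes, with 3 higher in R749H and 3 in E1126G as deposited, 2 and 5 with the median removed, and 2 and 3 both ways (31.2%). UPF3B, a factor of nonsense-mediated decay, was at 68.1%, 41.6% and 22.7%, below WT in both mutants, and its paralogue UPF3A was at 52.8%, 41.2% and 52.2%. The UPF3A call was lost when the larger implied error was used for both tables.

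The membrane skeleton, cytoskeleton and adhesion list was the largest, with 65 measurements in 39 of 65 genes. It had 25 higher in R749H and 4 in E1126G as deposited, 13 and 10 with the median removed, and 13 and 4 both ways (26.2%), while its median D was 0.24. EPB41, protein 4.1 of the spectrin-actin skeleton, had a 63-nt exon at 82.0% in WT, 53.2% in R749H and 23.1% in E1126G. SPTAN1, the α-spectrin of nonerythroid cells, had a 60-nt exon at 70.6%, 52.1% and 23.1%. In RASL-seq both exons were thus lower than WT in each mutant and lowest in the fast one.

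Membrane traffic and endocytosis had 37 measurements in 20 of 44 genes, with 11 and 5 as deposited, 8 and 8 with the median removed, and 8 and 5 both ways (35.1%). PICALM, a clathrin assembly protein, had a 24-nt exon at 75.2% in WT, 61.9% in R749H and 36.8% in E1126G. Protein kinases and their regulators had 39 measurements in 22 of 48 genes, with 11 and 5 as deposited, 7 and 8 with the median removed, 7 and 5 both ways (30.8%), and a median D of 0.08. TNIK, a kinase of Wnt and JNK signalling, had a 24-nt exon at 90.9%, 47.7% and 71.1%, lower than WT in both mutants and lowest in the slow one. MARK3, a microtubule affinity regulating kinase, had a 27-nt exon at 78.7%, 47.2% and 20.1%, lowest in the fast one.

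DNA replication, repair, p53 and cell cycle genes had 42 measurements in 20 of 45 genes, with 10 higher in R749H and 5 in E1126G as deposited, 3 and 8 with the median removed, and 3 and 5 both ways (19.0%). RCC1, the exchange factor of the Ran GTPase, had a 51-nt exon at 21.9% in WT, 48.8% in R749H and 19.7% in E1126G. Apoptosis genes had 18 measurements in 14 of 31 genes, with 4 and 2 as deposited, 1 and 2 with the median removed, and 1 and 2 both ways (16.7%). FAS, a death receptor, has an alternative 63-nt exon that encodes its transmembrane segment. It was at 89.0% in WT, 70.9% in R749H and 86.8% in E1126G. MCL1, an antiapoptotic BCL2 relative, differed on the log scale (D = 1.63) but stood at 99.6% and 98.7% in R749H and E1126G.

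Exons of a single gene did not always move together. Among the 365 genes with an event called both ways, 35 had more than 1 distinct called measurement. In 19 of these all were higher in R749H, in 3 all were higher in E1126G, and in 13 both directions occurred. The following examples of the 13 were chosen after their values were seen.

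FGFR2 held 4 such events. Its 148-nt exon (chromosome 10, 123278196 to 123278343) and its 145-nt exon (123276833 to 123276977) have the lengths and order of the mutually exclusive IIIb and IIIc exons, which set ligand specificity. The 148-nt exon was at 19.9% in WT, 27.4% in R749H and 6.76% in E1126G (D = 2.38 ± 0.32). The 145-nt exon was at 7.86%, 5.22% and 21.6% (D = -2.32 ± 0.78). The pair thus differed in opposite directions between the mutants in RASL-seq. In RNA-seq the 148-nt exon hardly differed between the mutants, at 36.2% in WT, 27.3% in R749H and 25% in E1126G. There the 145-nt exon was at 79.4%, 82.1% and 91.7%. The 267-nt exon upstream was at 95.9%, 91.3% and 97.9% in RASL-seq, opposite to the 78-nt exon named above.

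ITSN1 showed a similar split, with its 46-nt exon at 67.8% in WT, 94.3% in R749H and 59.4% in E1126G against the lower R749H level of its 167-nt exon. PICALM had a 150-nt exon at 87.6%, 71.7% and 88.9%, opposite to its 24-nt exon. MAX, the dimerisation partner of MYC, had a 27-nt exon at 16.0%, 39.3% and 13.0% and a longer exon at 2.93%, 10.2% and 21.9%. TRA2A had a 312-nt event at 81.9%, 81.6% and 90.8%, opposite to its 90-nt exon. Other genes of the 13 were CTNND1, FIP1L1, INF2, MARK3, SLC25A26, SRPK2 and TCF7L2.

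Properties that the choice of events did not use were then described by class, with no test. Shorter exons had the higher D. The median D was 0.62 over the 53 exons of at most 27 nt, 0.60 over the 245 of 28 to 50 nt, 0.58 over the 789 of 51 to 100 nt, 0.32 over the 812 above 100 and up to 200 nt and 0.25 over the 230 above 200 nt. With the median removed, 17.1% of exons of 28 to 50 nt were called higher in R749H and 9.80% higher in E1126G, whereas above 200 nt the shares were 11.3% and 21.3%. Across events D had a Pearson correlation of -0.10 with log10 exon length (n = 2129 events from the same libraries). In RNA-seq, where the same events were measured, the median D of the 5 length classes did not follow that order, at -0.26, 0.19, 0.04, 0.08 and 0.00 from the shortest to the longest.

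The exons called higher in R749H both ways had a median length of 84 nt and those higher in E1126G a median of 114 nt, beside 99 nt for all shared events. Their median WT inclusion was 73.1% and 45.3%, beside 65.5%. The distance between the flanking exons had a median of 8444 nt and 5683 nt, beside 8008 nt. In classes of that distance from the shortest to the longest, the median D was 0.42, 0.32, 0.39 and 0.61. Where RNA-seq measured the same events, these classes had medians of 0.38, -0.05, -0.15 and 0.04. By WT inclusion the median D was 0.38 under 20% and 0.52 over 80%, against 0.11 and 0.01 in RNA-seq. Whether the length was a multiple of 3 hardly set the groups apart, at 57.7% and 56.6% beside 56.4%. The median D was 0.41 for the 1201 events of such length and 0.50 for the other 928.

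**Figure D4:**
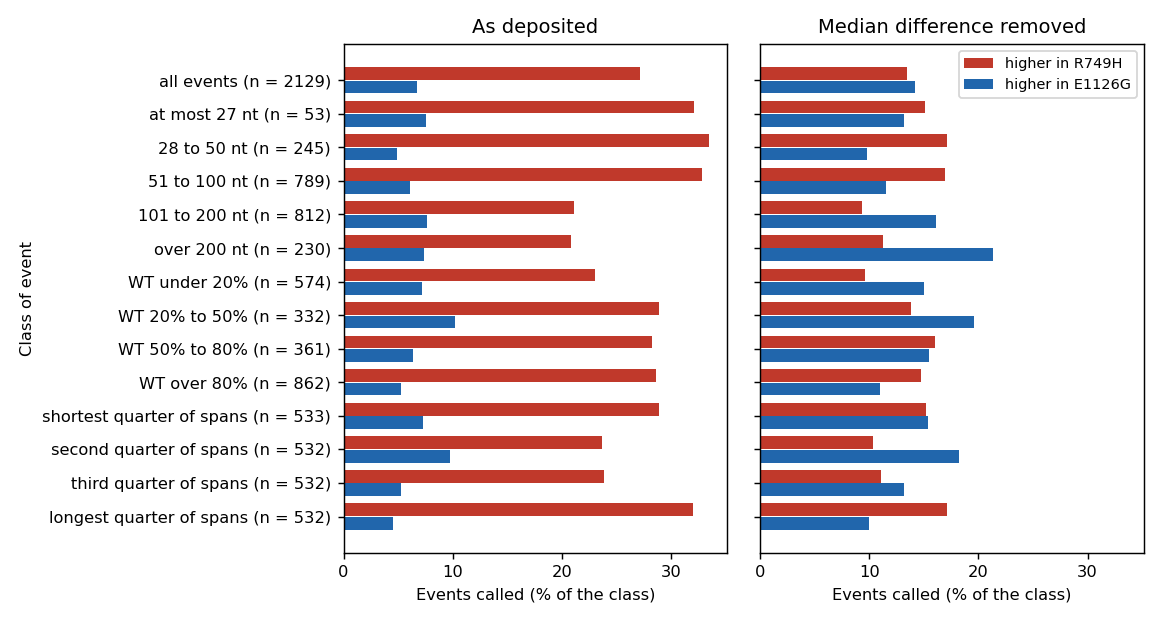
Percent of events called higher in R749H and higher in E1126G in classes of exon length, WT inclusion and distance between the flanking exons, as deposited and with the median removed. The share called higher in E1126G with the median removed was 9.80% at 28 to 50 nt and 21.3% above 200 nt.

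H1106Y, another mutant that the study describes as slow, was measured at 1927 of the shared events. Its level was nearer to R749H than to E1126G at 1125 of these, 58.4%. Its median over these events was 60.3%, however, beside 60.8% in E1126G and 67.8% in R749H. Among 278 measured events higher in R749H it was nearer to R749H at 179 (64.4%), and its median level was 79.8% beside 82.3% in R749H and 59.1% in E1126G. Among 136 events higher in E1126G it was nearer to R749H at 74.3%, with a median of 30.6% beside 35.3% and 58.1%. R749H and E1126G chose these events, so only the H1106Y levels are free of that choice.

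H1106Y often lay outside the range of the other mutants, and this was not particular to the called events. Over all 1927 events measured it was above both at 651, below both at 849 and between them at 427. Of the 278 it was above both at 117, below both at 40 and between them at 121. Of the 136 it was below both at 81, above both at 19 and between them at 36. CCNT1 was at 86.0% and RCC1 at 85.9% in H1106Y, above the 50% and 48.8% of R749H. The ITSN1 167-nt exon was at 18.3% and the TBX3 exon at 3.11%, below their R749H levels of 62.4% and 15.2%. PTBP2 went against this order, with 40.2% in H1106Y near its WT level, and ZDHHC9 at 19.3% and PPP5C at 36.5% lay nearer to E1126G.

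RNA-seq of polyA RNA from the same kinds of cells, with 2 libraries per genotype, gave a second reading. Its tables shared 13284 events between R749H and E1126G, and the same test called 230 of them (1.73%), 156 (1.17%) higher in R749H and 74 (0.557%) higher in E1126G. Its median D was 0.07, and 0.05 over the 1538 events that RASL-seq also held, so RNA-seq held little of the offset found in RASL-seq. The median implied error over these events was 0.91 in RNA-seq and 0.39 in RASL-seq.

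Over the 1538 events D had the same sign in both assays at 1011 (65.7%), with a Pearson correlation of 0.44 across events. Of the events called both ways in RASL-seq 350 were in RNA-seq, and 290 (82.9%) had the same sign. This held for 199 of 241 events higher in R749H (82.6%) and for 91 of 109 higher in E1126G (83.5%). The median D was 1.66 in RASL-seq and 0.97 in RNA-seq for the former and -1.14 and -1.11 for the latter. RNA-seq itself called 34 of the 350, all with the RASL-seq sign. Of 223 measured events called higher in R749H only as deposited, 145 (65.0%) had the same sign in RNA-seq, with a median D of 0.97 in RASL-seq and 0.24 in RNA-seq. Of 135 measured events called higher in E1126G only with the median removed, 100 (74.1%) had a negative D in RNA-seq.

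Several named exons passed in RNA-seq as well, with adjustment over its 13284 events. TBX3 was at 74.2% in WT, 17.7% in R749H and 65.2% in E1126G, and the 267-nt exon of FGFR2 was at 82.1%, 50.8% and 97.0%. The SRSF7 event was at 25.3%, 66.8% and 33.9%. RCC1 was at 36.2%, 73.8% and 30.3%, and the 24-nt exon of PICALM was at 75.1%, 51.7% and 19.5%. These exons kept the direction they had in RASL-seq.

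Other named exons had the RASL-seq direction without passing in RNA-seq. MTA1 was at 68.5% in WT, 62.9% in R749H and 34.8% in E1126G, PTBP2 at 59.3%, 36.7% and 61.1%, and CTNND1 at 92.0%, 51.1% and 88.9%. The 39-nt MDM4 exon was at 30.3%, 80% and 16.7%, and EPB41 at 89.7%, 32.8% and 13.8%. SPTAN1 hardly differed between the mutants in RNA-seq, at 82.6% in WT, 47.2% in R749H and 43.8% in E1126G. Levels could differ widely between the assays, as for PPP5C, whose exon was at 97.7%, 98.1% and 96.9% in RNA-seq. There the ZDHHC9 exon was at 98.9%, 99.7% and 97.7%, and the 62-nt PDLIM7 exon at 99.2%, 98.1% and 97.0%. In WT the AIFM1 exon was at 36.8% in RASL-seq and 99.3% in RNA-seq. The CCNT1 exon was at 17.5% and 83.0% in WT in the same order. The sign of D was reversed in RNA-seq for the 78-nt FGFR2 exon (95.1% in R749H and 96.7% in E1126G), NR2C2AP, SMARCA1, MATR3 and the MARK3 event named above.

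**Figure D5:**
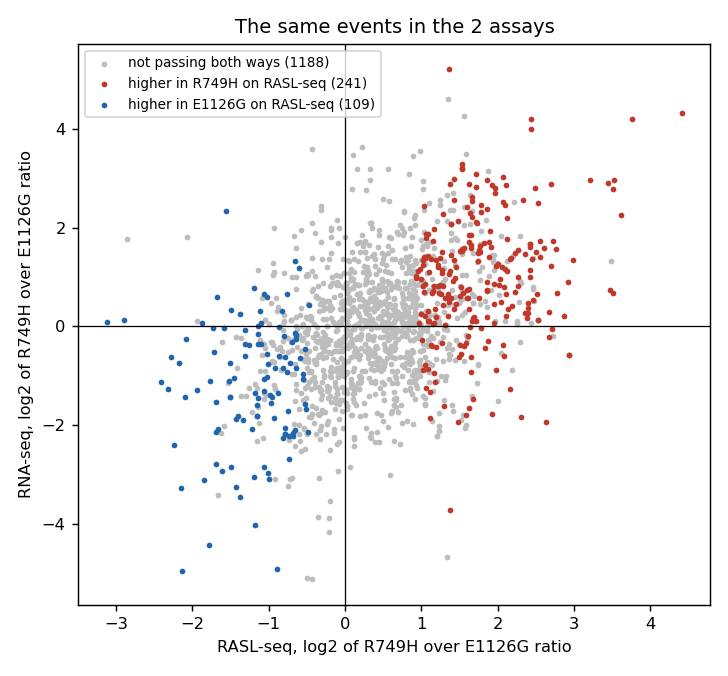
D in RNA-seq against D in RASL-seq, both on the log2 scale, for the 1538 events measured by both assays, with the events called in RASL-seq marked. Of the 350 called events, 290 lie in the quadrants where the signs are the same.

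Among the events nearest the threshold, UBE2Q2 lay just inside, at 11.5% in R749H and 4.67% in E1126G, and did not pass with the median removed. MAP4K4 lay just outside, at 85.4% and 81.2%.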

How the data were processed

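The members, gene lists and naming rule were chosen with earlier results of these data known. The authors deposited comparison tables of each mutant against WT, with coordinates in GRCh37/hg19 per the submitters' processing notes; starts are printed 1-based. The deposited columns were read as the natural log of the WT inclusion ratio, the log2 change in the mutant and an unadjusted p-value. What test gave that p-value is not stated in the sources used here. The table named by a code was assigned to R749H, whose sample labels list it. With the natural log, 62.3% of WT ratios could be written as whole-number ratios (denominators of at most 300, tolerance 1e-09 of the value), against 0.282% with base 2. The sign of the change was checked likewise, with 67.7% against 4.74% in R749H and 61.9% against 4.37% in E1126G.

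The mutant ratio was the WT ratio times the change, and inclusion was 100 times the ratio over 1 plus the ratio. The error of each log2 change was its size over the two-sided normal quantile of its p. The squared errors were summed, which counts the WT error although WT cancels, and 1 event had no finite error. Calls used a two-sided approximate z test with Benjamini-Hochberg adjustment at 0.05, and its calculation was run on simulated data. The simulation drew its noise from the implied errors themselves, so it could not check whether those errors are right. Depth is unknown, so no interval from counts was given. Named were the 12 largest differences per direction in points (1 per gene, passing both ways), up to 8 per direction called on opposite sides of WT, up to 3 per list, and the events next to the threshold. Some events that this rule names are not reported here. Lists were described over distinct measurements. Symbols were matched for 2104 of 2129 events. Alternatives were the median offset, threshold, minimum size, WT range, error and duplicate handling. Python 3.11.15, numpy 2.4.6, pandas 2.3.3, scipy 1.17.1 and matplotlib 3.10.9 were used. Retained introns and GRO-seq are not analysed here.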

Additional observations from a re-analysis of the deposited data

Results flagged for a closer look

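At 7 of the 1538 events measured by both assays, the difference between R749H and E1126G in RASL-seq differed from that in RNA-seq by an approximate z test of the difference itself at 0.05, with Benjamini-Hochberg adjustment over the 1538 events. This test was chosen after seeing the data. An unadjusted p below 0.05 was reached at 168 events. With each assay's median removed 5 events passed, and SRSF3, ST7 and FUBP1 passed both ways.

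SRSF3 encodes an SR protein, and its 456-nt event had a D of -0.32 in RASL-seq and 2.44 in RNA-seq. In RASL-seq it was at 37.7% in WT, 67.6% in R749H and 72.2% in E1126G, and in RNA-seq at 10.4%, 83.7% and 48.5%. Both mutants thus lay above WT in both assays, and the order of the mutants differed. For the 69-nt exon of ST7 the sign was the same, with D at -0.89 and -4.92, and R749H and E1126G were at 12.4% and 20.7% in RASL-seq against 4.46% and 58.6% in RNA-seq. FUBP1, a regulator of MYC transcription and of splicing, had a 63-nt exon with D at 0.33 and 2.97, and its levels were 7.67% and 6.19% in RASL-seq against 56.2% and 14.1% in RNA-seq.

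The remaining events had opposite signs and did not pass with the medians removed. EIF4G1, a translation initiation scaffold, had D at 2.94 and -0.58. ARID4B had 2.67 and -0.23. The MARK3 event at 27 nt had 1.83 and -0.43, and SCML1 had 0.65 and -1.61. A second MARK3 event with the same exon and other flanking exons had the same sign in both assays, with D at 1.87 in RASL-seq and 0.74 in RNA-seq.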

How the results depend on the processing

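The share of calls higher in R749H was 80.1% as deposited. It fell to 48.6%, with 286 and 302 calls, with the median removed, and to 48.3%, with 209 and 224, with the median removed and WT inclusion limited to 5% to 95%. Both settings centre the differences on their median, which by construction moves the split of calls towards even. Requiring 10 points gave 255 and 53 calls as deposited and 157 and 64 (71.0% higher in R749H) with the median removed. Calls higher in E1126G were 87 at a threshold of 0.01 and 220 with the WT part of the errors removed. Under the remaining alternatives tried, counts stayed within 1.5 times of 577 and 143. The settings that joined the median to another choice, and the use of 1 row per distinct measurement (552 and 132), were chosen after seeing the data.

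With the larger error 3 events of the naming rule no longer passed, UPF3A and UBE2Q2 among them. In RNA-seq D was reversed for the 78-nt FGFR2 exon (-0.57), NR2C2AP (-0.050), SMARCA1 (0.26), MATR3 (0.0126) and MARK3 (-0.43). No paired analysis was possible because the tables hold no value per library. For the same reason no replicate could be left out.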
